A study of Caenorhabditis elegans with 12 samples.

Results

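RNA levels were compared between larvae of PHX2193, a Caenorhabditis elegans strain whose genotype is given as flp-11(syb2193), and wild-type N2 larvae. Both strains were collected at the first larval stage (L1) after 48 h in M9 buffer without food, having been started as eggs that hypochlorite treatment freed from plate-grown worms. All libraries of these strains in the deposited count table were used, 4 PHX2193 and 4 N2 of 12 libraries in all. The other 4 libraries are HBR2340, labelled flp-11(syb1445), treated the same way. They entered the fit, where they help to estimate the spread between replicates, and served as a second strain with a flp-11 allele. What syb2193 or syb1445 changes in the gene is not stated in the labels, and whole larvae were extracted, so no value belongs to one tissue.

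Larvae that hatch without food stop development as L1 and survive for weeks without growing. Insulin-like signalling through DAF-2 and the transcription factor DAF-16 controls this arrest. FMRFamide-like neuropeptides are the products of flp-11, and they are made mainly by RIS, a single GABA-releasing interneuron. RIS is active during sleep and quiets movement and feeding, and its FLP-11 peptides are needed for this quiescence, which also occurs in arrested larvae.

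Libraries held 23068345 to 34832403 gene counts in N2 and 23941071 to 30526360 in PHX2193. Library N2 B stood apart before any comparison of strains. In it 27% of the 15908 tested genes were more than 2-fold away from the average of N2 A, C and D, and the same measure gave 6.42% to 11.1% for those libraries and 2.8% to 6.16% in PHX2193. Its scaling factor was 0.717. Levels are in CPM, counts scaled to a common library size with these factors, differences are log2 fold changes of PHX2193 against N2 with their standard error, and called genes are those with an adjusted p under 0.05 in edgeR's quasi-likelihood test, adjusted by Benjamini and Hochberg's method over all genes tested.

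The transcript of flp-11 itself was low in PHX2193. It stood at 211, 367, 231 and 206 CPM in N2 A to D and at 19.3, 23.2, 22.1 and 19.7 CPM in PHX2193 A to D. Every PHX2193 library was far below every N2 library, and N2 B was the highest. The mean fell from 254 ± 76.6 CPM (SD, n = 4) to 21.1 ± 1.88 CPM, a log2 fold change of -3.59 ± 0.20 (edgeR, adjusted p = 1.3e-06), and of -3.36 ± 0.11 without N2 B. HBR2340 held 123 ± 15.4 CPM, so PHX2193 was also below the other flp-11 strain, by a log2 fold change of -2.54 in the direct contrast (edgeR, adjusted p = 4.9e-06). In RNA of whole larvae, fewer cells that make a transcript and less of it per cell cannot be told apart. The gene lies on chromosome X (WBcel235, 4677334 to 4678129, minus strand), and its annotated end overlaps that of tmem-135 on the other strand, which held 10.3 CPM in N2. Of 6 tested genes within 20 kb of flp-11, none was called by edgeR, DESeq2 or limma-voom, none had an unadjusted p under 0.05, and their log2 fold changes ran from -0.26 to 0.40.

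**Figure D1:**
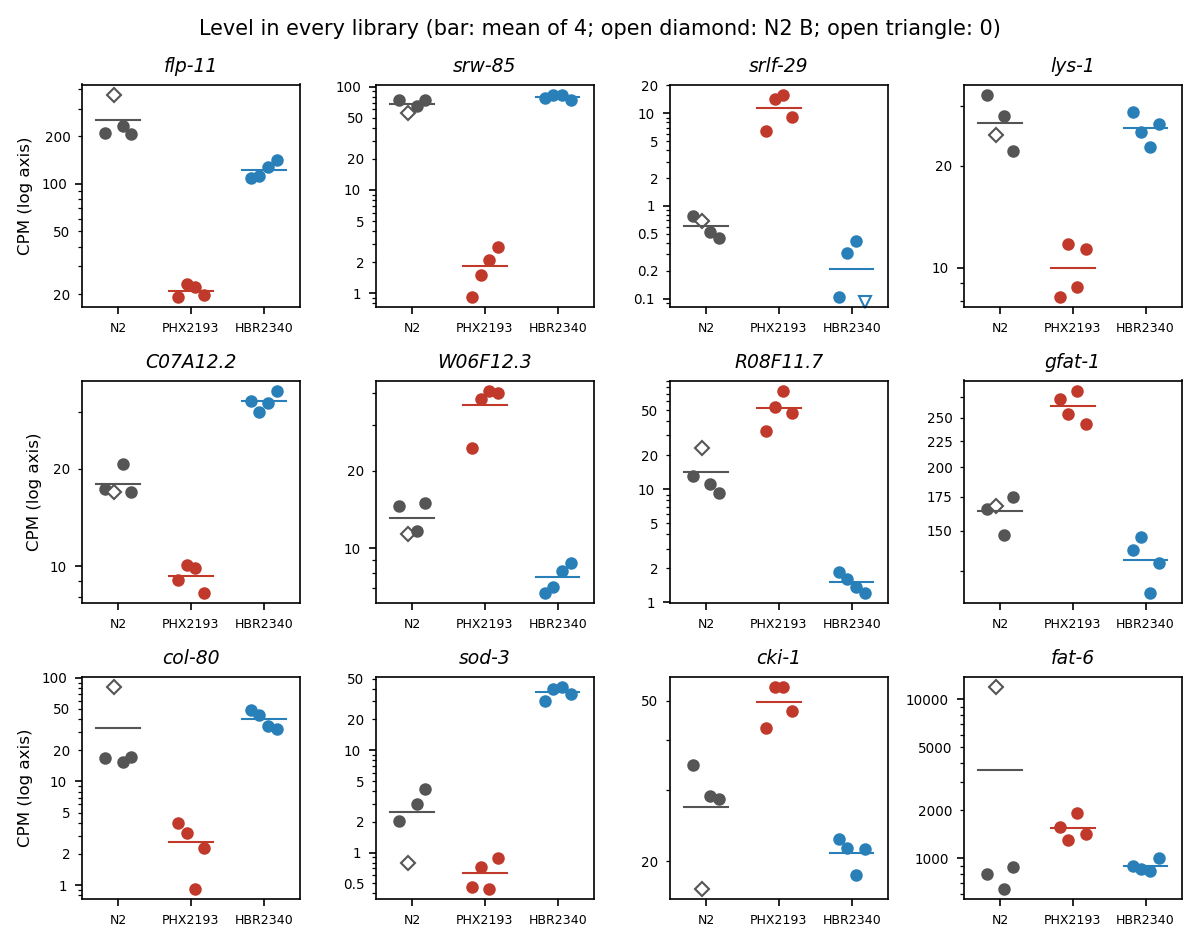
Level of 12 genes in each library, in CPM on a log axis, by strain, with a bar at the mean of 4 libraries. The open diamond is N2 B and the open triangle is a library at 0. For flp-11 and srw-85 the PHX2193 points lie apart from both other strains, and for sod-3, cki-1 and fat-6 the position of N2 B differs from that of the other N2 libraries.

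The genes around FLP-11 signalling were not called. None of 5 genes reported to encode receptors for FLP-11 peptides was called by edgeR, DESeq2 or limma-voom, and 1 had an unadjusted p under 0.05. That gene, dmsr-7, held 11.15 ± 0.419 CPM in N2 and 9.42 ± 0.362 CPM in PHX2193 (log2 fold change -0.24 ± 0.11, edgeR, adjusted p = 0.43). For the others the log2 fold changes were 0.06 for dmsr-1, 0.31 for frpr-3, -0.07 for npr-4 and 0.08 for npr-22. Among 10 genes of RIS and GABA neurons flp-11 was the only one called by any of the 3 tools. The gene aptf-1, whose AP2 transcription factor RIS needs for its function, held 4.13 ± 1.60 CPM in N2 and 3.84 ± 0.632 CPM in PHX2193. The GABA genes unc-25, which encodes glutamate decarboxylase, and unc-47, the vesicular GABA transporter, had log2 fold changes of -0.16 ± 0.16 and -0.27 ± 0.19. Of 45 tested K2P potassium channel genes none was called by edgeR, DESeq2 or limma-voom. An unadjusted p under 0.05 was found for 5 of the 45, beside 11.6% of all tested genes. The lowest p was that of twk-18, a channel of body wall muscle (log2 fold change -0.61 ± 0.18, edgeR, adjusted p = 0.18). Among 29 other flp genes and 56 nlp genes, which encode further neuropeptides, edgeR and limma-voom called none, DESeq2 called 1 and 3, and 3 and 13 had an unadjusted p under 0.05. DESeq2 called 451 of all 15908 tested genes.

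Across all 15908 tested genes 58 were called (0.365%), 26 higher in PHX2193 (0.163%) and 32 lower (0.201%). All but 1, a pseudogene, are protein coding. The rises began at a log2 fold change of 0.49 and the falls at -0.60, and 35 of the 58 passed 2-fold, 19 higher and 16 lower. Over all tested genes the median absolute log2 fold change was 0.19 and 665 genes (4.18%) passed 2-fold, most of them without a call. In each of the 58 genes all 4 PHX2193 libraries lay on one side of all 4 N2 libraries, as they did in 960 of all tested genes (6.03%), 526 with PHX2193 above (3.31%) and 434 with PHX2193 below (2.73%). Without N2 B there were 228 calls among 16249 tested genes (1.4%), 120 higher (0.739%) and 108 lower (0.665%), and all 58 genes were among them. The libraries were then apart in 1797 of the 15908 genes (11.3%), 890 with PHX2193 above (5.59%) and 907 below (5.7%). With only the 8 libraries of the compared strains 3 genes were called (0.0195%), srlf-29 higher (0.00648%) and srw-85 and flp-11 lower (0.013%).

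**Figure D2:**
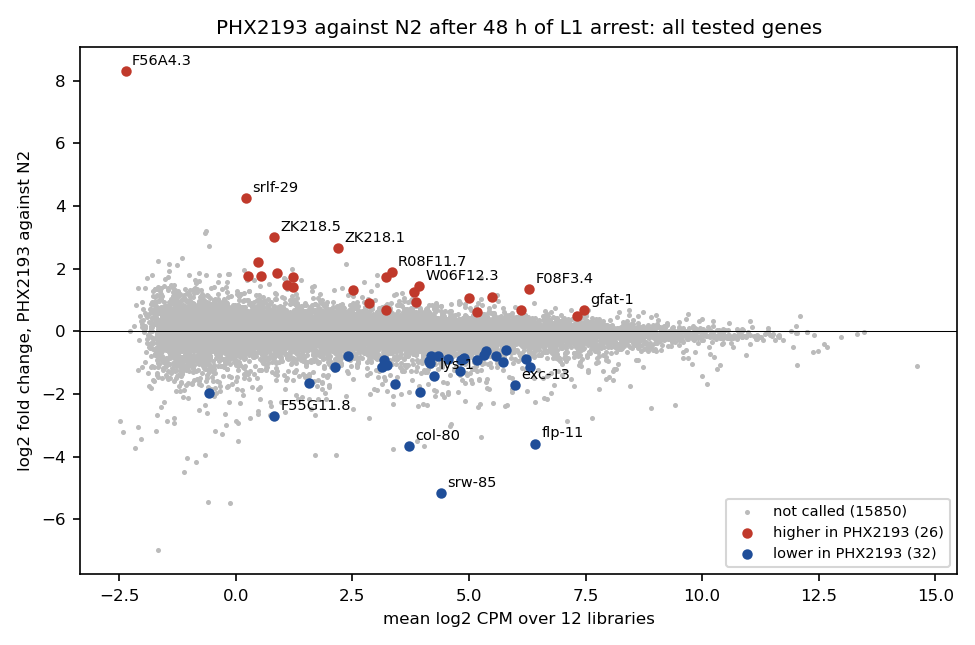
Log2 fold change of PHX2193 against N2 for all 15908 tested genes, plotted against mean log2 CPM over 12 libraries, with 26 genes called higher in red and 32 called lower in blue. The called genes lie at low and middle levels, flp-11 and srw-85 are the lowest called genes above a mean log2 CPM of 4, and the height of F56A4.3, which has no count in N2, depends on the prior count.

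The number of calls depended on single libraries. Leaving out N2 A gave 77 calls, N2 C 9 and N2 D 37. Leaving out PHX2193 A, B, C and D in turn gave 53, 10, 7 and 8 calls, and leaving out HBR2340 A, B, C and D gave 31, 29, 38 and 23. The D libraries of N2 and PHX2193 deviated from their strain means together (r = 0.661 across genes, which are not independent replicates), and without both of them 4 genes were called, srw-85, flp-11, lys-1 and C07A12.2, all lower. Only 6 genes were called in each of the 12 fits that left out 1 library, namely srw-85, flp-11, lys-1, C07A12.2, W06F12.3 and srlf-29. All 58 genes kept their sign in every setting in which they were tested, which the separation of their libraries largely fixes.

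**Figure D3:**
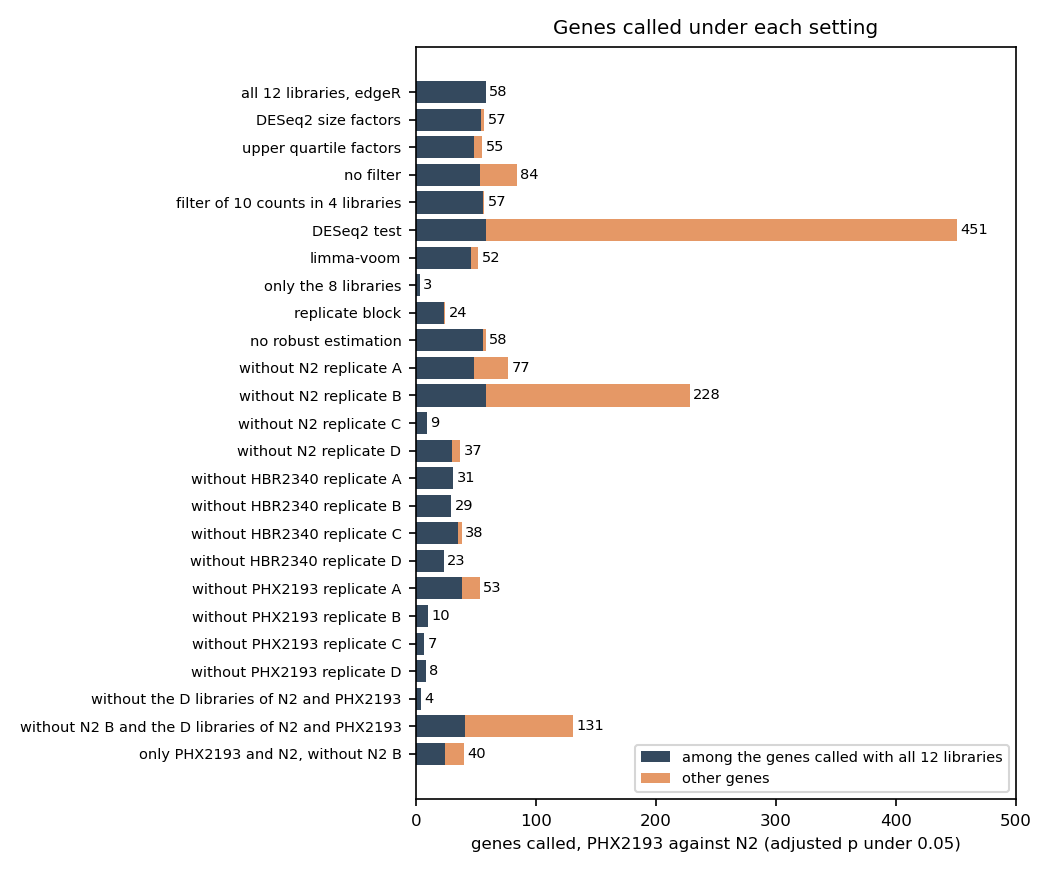
Number of genes called in PHX2193 against N2 at an adjusted p under 0.05 under each setting, with dark bars for genes among the 58 called with all 12 libraries and light bars for other genes. Counts run from 3 with only the 8 compared libraries to 451 with DESeq2.

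In 3 genes the fitted difference was larger than in the other called genes. The gene srw-85, of the SRW family of seven-pass chemoreceptors, had 1715, 973, 2374 and 2167 raw counts in N2 A to D and 22, 50, 57 and 95 in PHX2193 A to D. Its level fell from 67.3 ± 9.18 CPM to 1.84 ± 0.814 CPM (SD, n = 4 each; log2 fold change -5.17 ± 0.26, edgeR, adjusted p = 1.0e-06), and HBR2340 held 79.5 ± 4.66 CPM. This was a larger fall than that of flp-11. The gene srlf-29 had 18, 12, 19 and 13 counts in N2 and 155, 472, 432 and 310 in PHX2193. It rose from 0.608 ± 0.152 CPM to 11.5 ± 4.36 CPM (log2 fold change 4.25 ± 0.52, edgeR, adjusted p = 0.0051), and overlaps srw-97 on the other strand. For F56A4.3 no count was seen in any N2 or HBR2340 library, while PHX2193 A to D had 28, 70, 22 and 54. Against the 0.121 CPM that 3 counts per library make in N2, its level of 1.43 ± 0.558 CPM was at least 11.7-fold higher. With no count in N2 or HBR2340, F56A4.3 passed the count filter through the PHX2193 libraries alone. It could thus only be tested as higher, and its call (edgeR, adjusted p = 0.022) is no separate support for the rise. The last 2 genes lie below the level set for named genes and were picked after their values were seen.

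For srw-85 (chromosome V, 19429387 to 19431136) none of 12 tested genes within 20 kb was called by edgeR or limma-voom, DESeq2 called 1, and 3 had an unadjusted p under 0.05. Over all 15908 tested genes DESeq2 called 451 and 11.6% had an unadjusted p under 0.05. For srlf-29 (chromosome II, 1666325 to 1667526) none of 10 such neighbours was called by edgeR, DESeq2 or limma-voom or had an unadjusted p under 0.05. No gene within 20 kb of F56A4.3 (chromosome V, 2453414 to 2456147) passed the count filter. Whether changes in sequence at these places accompany the strain was not tested.

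Few chemoreceptor genes were called. These families code for seven-pass receptors of sensory neurons. Of 451 tested members edgeR called 2 higher and 2 lower, beside 0.365% of all tested genes called in either direction. DESeq2 called 14 members, 10 of them higher, beside 451 of all 15908 tested genes, 197 of them higher. The list had a median log2 fold change of 0.13 against -0.01 over all tested genes. Beside srw-85, srsx-24 fell from 4.74 ± 1.23 to 2.13 ± 0.394 CPM (log2 fold change -1.15 ± 0.21, edgeR, adjusted p = 0.044). On the same chromosome srw-71 rose from 12.95 ± 1.42 to 24.5 ± 4.52 CPM and srw-68 from 1.77 ± 0.282 to 4.93 ± 1.43 CPM, log2 fold changes of 0.92 ± 0.15 and 1.47 ± 0.26. Between these neighbours lies srw-69, which edgeR did not call and DESeq2 did (adjusted p = 0.010), at 2.64 ± 0.913 CPM in N2 and 6.41 ± 2.74 CPM in PHX2193. How reads that match several such paralogs were counted is not given in the sources used.

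Of 33 tested lysozyme and saposin-like genes, whose products attack bacterial cell walls and membranes in the gut, edgeR called 3 lower and none higher, where 0.201% of all tested genes were called lower and 0.163% higher. DESeq2 called 7, of which 1 was higher, beside 451 of all 15908 tested genes. Of the 33 log2 fold changes 15 were positive. Without N2 B edgeR called 3 lower and 1 higher, the saposin-like gene spp-22, whose log2 fold change was 0.75 ± 0.19 with all libraries (edgeR, adjusted p = 0.12) and 0.58 ± 0.12 without N2 B (edgeR, adjusted p = 0.042). The lysozyme gene lys-1 stood at 32.4, 24.6, 28.1 and 22.1 CPM in N2 A to D and at 8.20, 11.7, 8.74 and 11.4 CPM in PHX2193 A to D. The strains did not overlap, and lys-1 fell from 26.8 ± 4.47 to 10.003 ± 1.78 CPM (log2 fold change -1.42 ± 0.15, edgeR, adjusted p = 0.0028). HBR2340, at 25.8 ± 2.49 CPM, was near N2. The adjacent lysozyme gene lys-2 had a log2 fold change of the same size, -1.40 ± 0.37, but varied more within N2, and edgeR did not call it (adjusted p = 0.14) while DESeq2 did (adjusted p = 0.011). The invertebrate-type lysozyme gene ilys-4 fell from 24.6 ± 8.68 to 10.3 ± 2.02 CPM, with 37.5 CPM in N2 B, and its log2 fold change of -1.26 ± 0.21 was -0.99 ± 0.14 without N2 B. For spp-24, a saposin-like gene, the fall was from 13.1 ± 3.94 to 6.19 ± 0.320 CPM (log2 fold change -1.08 ± 0.18). The median of the whole list was -0.14, and -0.07 without N2 B.

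The transthyretin-related genes, a nematode family of small secreted proteins, gave 3 falls among 47 tested members, where 0.201% of all tested genes were called lower. DESeq2 called 3 and limma-voom 2 of the list, beside 451 and 52 of all 15908 tested genes. Of the 47 log2 fold changes 17 were positive, and the median of all 47 was -0.15. The neighbours ttr-24 and ttr-25 on chromosome V fell by 0.97 and 0.91 on the log2 scale, from 52.1 ± 11.1 to 26.6 ± 5.82 CPM and from 7.27 ± 0.415 to 3.89 ± 0.908 CPM. The third, ttr-47, had a log2 fold change of -1.003 and fell from 17.8 ± 4.80 to 8.85 ± 0.849 CPM. In HBR2340 all 3 stood above N2, with means of 109, 25.9 and 38.2 CPM.

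Of 108 tested cuticle collagen genes edgeR called 1 higher and 1 lower, beside 0.365% of all tested genes called in either direction. DESeq2 called 10, of which 2 were higher, beside 451 of all 15908 tested genes. All PHX2193 libraries lay above all N2 libraries in 4 of the 108 and below them in 12. Over all tested genes the shares were 3.31% above and 2.73% below. The collagen gene col-80 stood at 16.98, 82.2, 15.5 and 17.3 CPM in N2 A to D and at 4.00, 3.16, 0.922 and 2.26 CPM in PHX2193. N2 B was the highest by a wide margin, but the 3 other N2 libraries also lay above every PHX2193 library. Its log2 fold change was -3.67 ± 0.61 with N2 B and -2.69 ± 0.32 without it (edgeR, adjusted p = 0.027 and 0.0045). In contrast, col-138 rose from 1.18 ± 0.392 to 4.37 ± 0.831 CPM (log2 fold change 1.87 ± 0.28). Of 24 tested insulin-like peptide genes edgeR called 1 and limma-voom 0. DESeq2 called 3, of which 1 was higher, beside 451 of all 15908 tested genes. An unadjusted p under 0.05 was found for 7 of the 24, beside 11.6% of all tested genes. The gene that edgeR called, ins-24, fell from 18.9 ± 9.35 to 5.94 ± 1.40 CPM (log2 fold change -1.67 ± 0.30, and -1.31 ± 0.22 without N2 B, where N2 B held 31.7 CPM).

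Among enzymes and transporters, gfat-1 was the most abundant gene called higher. It encodes glutamine-fructose-6-phosphate aminotransferase, the first enzyme of the hexosamine pathway that makes the sugar units of chitin and glycoproteins. Its levels were 165, 168, 147 and 175 CPM in N2 and 272, 255, 283 and 243 CPM in PHX2193. The replicates were tight in both strains, and gfat-1 rose by a log2 fold change of 0.69 ± 0.11 (edgeR, adjusted p = 0.022), the same without N2 B. The P450 gene cyp-13A8 was the only one of 61 tested cytochrome P450 genes that edgeR called with all libraries. DESeq2 called 8 of the 61, beside 451 of all 15908 tested genes. The level of cyp-13A8 rose from 1.16 ± 0.504 to 5.44 ± 2.32 CPM (log2 fold change 2.20 ± 0.38). Genes named next were picked after their values were seen. The gene pgp-11, of the P-glycoprotein export pumps, fell from 29.4 ± 6.04 to 16.1 ± 1.45 CPM, and acp-6, of the acid phosphatases, fell from 37.4 ± 3.39 to 20.01 ± 2.81 CPM. The tetraspanin gene tsp-8 fell by 0.60 and mif-4, related to macrophage migration inhibitory factor, rose by 0.67 on the log2 scale.

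Most of the remaining called genes carry only a sequence name, and 43 of the 58 were in none of the 56 gene lists examined. Among the rises, R08F11.7 stood at 13.2, 23.2, 11.1 and 9.34 CPM in N2 and at 32.8, 53.9, 74.6 and 47.2 CPM in PHX2193. N2 B was the highest N2 library and still below every PHX2193 library, so its log2 fold change of 1.89 ± 0.29 grew to 2.22 ± 0.25 without N2 B. HBR2340 held 1.51 ± 0.274 CPM of it. The gene F08F3.4 rose from 88.2 ± 26.01 to 222 ± 21.9 CPM (log2 fold change 1.33 ± 0.20) against 25.4 ± 4.06 CPM in HBR2340. For rml-4 the means were 8.34 ± 3.52 and 27.8 ± 4.50 CPM, and for F55H12.2, which kept its call in 11 of the 12 fits without 1 library, 26.6 ± 2.51 and 55.3 ± 7.26 CPM. The other rises named by the rule, C12D5.3, T21D12.12, R07C12.1, F09A5.3 and Y73F4A.3, had log2 fold changes of 1.73, 1.27, 1.31, 0.90 and 1.101.

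Several other genes that fell in PHX2193 were above N2 in HBR2340. The gene exc-13 fell from 81.1 ± 29.7 to 24.6 ± 6.31 CPM (log2 fold change -1.72 ± 0.25, and -1.48 ± 0.21 without N2 B) and held 138 ± 22.4 CPM in HBR2340. F08H9.4, of the small heat shock proteins, fell from 12.5 ± 5.48 to 3.22 ± 0.0676 CPM (log2 fold change -1.95 ± 0.33) against 103 ± 44.1 CPM in HBR2340. The calponin gene cpn-3 fell from 62.3 ± 11.76 to 28.5 ± 7.38 CPM against 293 ± 33.6 CPM in HBR2340. Of the remaining falls named by the rule, C04E12.4 went from 9.29 ± 1.96 to 4.24 ± 0.543 CPM and R09D1.12 from 3.27 ± 1.05 to 1.03 ± 0.317 CPM. C07A12.2, picked after its values were seen because it kept its call in every fit without 1 library, stood at 17.3, 16.97, 20.7 and 16.97 CPM in N2 and 9.05, 10.1, 9.85 and 8.26 CPM in PHX2193. The values within each strain were close together, for a log2 fold change of -0.95 ± 0.11 (edgeR, adjusted p = 0.0034).

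**Figure D4:**
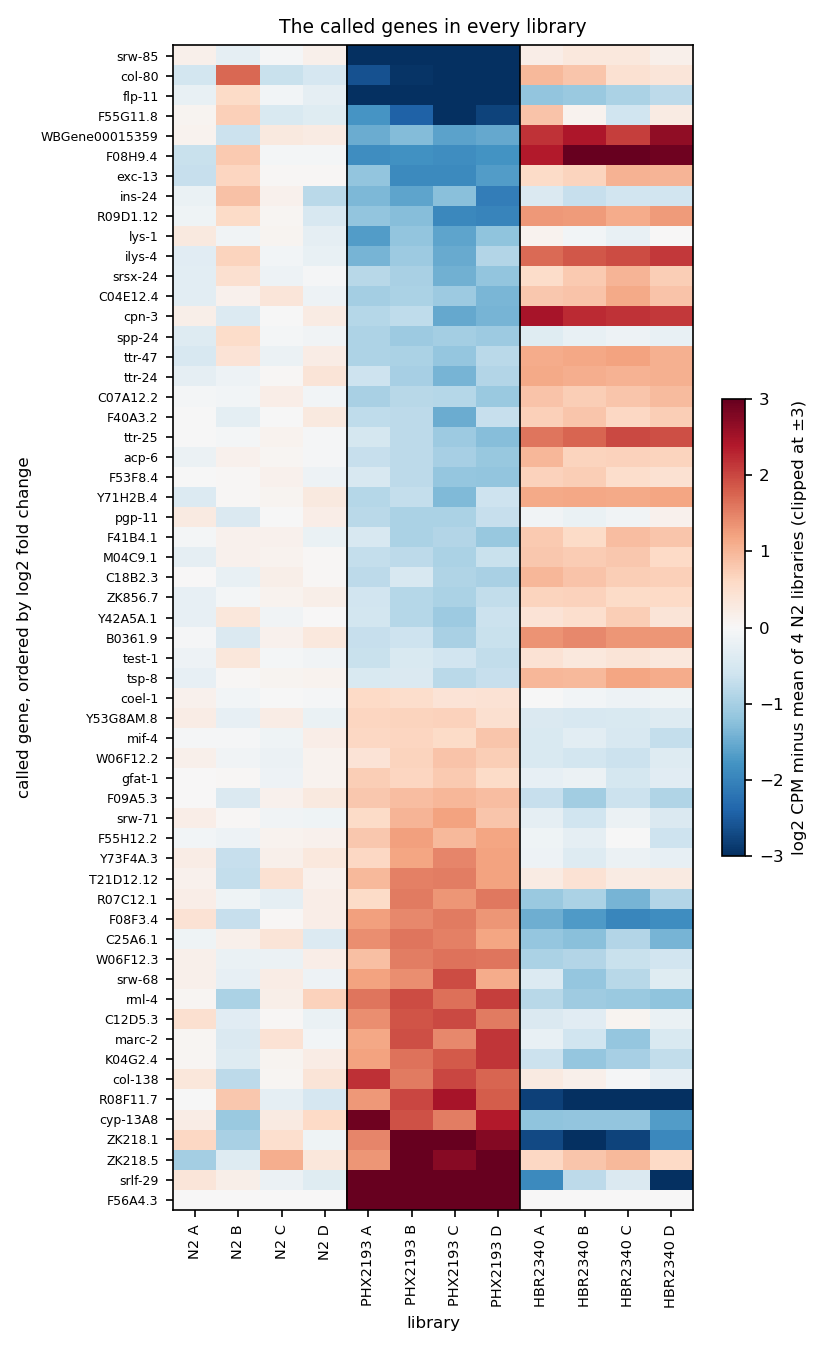
Log2 CPM of the 58 called genes in each library, as the difference from the mean of the 4 N2 libraries of the gene, limited to 3 either way and ordered by fold change. The PHX2193 columns are blue for 32 genes and red for 26, PHX2193 A is paler than the rest for several rises such as ZK218.1, N2 B departs from the other N2 columns in col-80, and many genes have the opposite colour in HBR2340.

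Chromosome V held 23 of the 58 calls among its 3521 tested genes (0.653%), and the other nuclear chromosomes held 5 to 9 each (0.208% to 0.35%). Called genes within 20 kb of each other formed 6 pairs of 12 genes, 5 of the pairs on chromosome V, and within each pair both genes moved the same way. How often neighbouring tested genes move the same way in general was not counted, so the pairs are only described. Uncalled genes lying within these pairs did not always follow. Between the falling exc-13 and srsx-24, srj-14 and srx-56 had log2 fold changes of 0.36 and 0.76. In rising pairs, srw-69 and cel-mir-4814 had 1.27 and 0.67. The closest pair was ttr-24 and ttr-25, 70 bases apart. Next came C25A6.1 and F08F3.4, 822 bases apart, with log2 fold changes of 1.43 and 1.33. W06F12.3 on chromosome III, at 14.6, 11.4, 11.6 and 14.97 CPM in N2 and 24.5, 37.9, 40.8 and 40.1 CPM in PHX2193, rose by 1.45 ± 0.17 (edgeR, adjusted p = 0.0045), and its neighbour W06F12.2 by 0.67 ± 0.12. ZK218.1 rose from 4.94 ± 2.16 to 31.1 ± 13.5 CPM and ZK218.5 from 0.818 ± 0.554 to 6.76 ± 4.27 CPM, with PHX2193 A the lowest PHX2193 library for both. Between them ZK218.3 had 20, 1, 108 and 5 counts in N2 and 47, 430, 123 and 288 in PHX2193 and was not called, while ZK218.4 had a log2 fold change of -1.33 ± 0.42. ZK218.5 and ZK218.3 were picked after their values were seen.

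The direct contrast of PHX2193 with HBR2340 called 3106 genes (19.5%), 1612 higher (10.1%) and 1494 lower (9.39%), far more than the contrast with N2. These contrasts share the PHX2193 libraries, so their values are only set side by side. For lys-1 and srw-85 the log2 fold changes of PHX2193 were -1.42 and -5.17 against N2 and -1.36 and -5.41 against HBR2340, as HBR2340 and N2 were close. For W06F12.3, F08F3.4 and R08F11.7 they were 1.45, 1.33 and 1.89 against N2 and 2.22, 3.13 and 5.10 against HBR2340, since HBR2340 lay below N2. For cpn-3, ilys-4 and F08H9.4 they were -1.13, -1.26 and -1.95 against N2 and -3.36, -3.12 and -4.998 against HBR2340, which lay above N2. The flp-11 transcript was lower than in N2 in both strains, with means of 21.1 CPM in PHX2193 and 123 CPM in HBR2340.

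Without N2 B 170 further genes were called. The 10 with the smallest adjusted p include sod-3, a mitochondrial manganese superoxide dismutase and a standard DAF-16 target. It stood at 2.04, 0.795, 2.99 and 4.16 CPM in N2 A to D and at 0.463, 0.722, 0.443 and 0.892 CPM in PHX2193. N2 B was inside the PHX2193 range, and without it sod-3 fell by 2.25 ± 0.28 on the log2 scale (edgeR, adjusted p = 0.0041), from a low level. With all libraries its log2 fold change was -1.99 ± 0.40 (edgeR, adjusted p = 0.064). The CAP-domain gene scl-14 rose from 8.78 ± 0.607 CPM (n = 3) to 30.3 ± 5.94 CPM with N2 B at 0.795 CPM. The palmitoyltransferase gene dhhc-11 rose from 4.92 ± 0.289 (n = 3) to 9.98 ± 1.19 CPM with N2 B at 18.3 CPM, above every PHX2193 library. The P450 gene cyp-29A4 fell from 5.17 ± 1.65 (n = 3) to 0.832 ± 0.444 CPM, and the tyrosinase gene tyr-4 from 12.03 ± 1.196 (n = 3) to 5.60 ± 1.42 CPM. The ubiquitin-conjugating enzyme gene ubc-3 and C01F1.6 rose by 0.56 and 0.62, and F40G12.5, gei-15 and C05D12.3 fell by 2.10, 0.85 and 1.02. With all libraries edgeR called none of these 10 genes, at adjusted p from 0.059 for F40G12.5 to 0.84 for dhhc-11. Their log2 fold changes then kept their signs, at 2.15 for scl-14, 0.28 for dhhc-11, -2.26 for cyp-29A4, -0.90 for tyr-4, 0.28 for ubc-3, 0.79 for C01F1.6, -3.38 for F40G12.5, -0.75 for gei-15 and -0.63 for C05D12.3.

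In 25 of the 56 lists at least 1 member was called without N2 B, against 7 with it. Over all tested genes 1.4% were called without N2 B and 0.365% with it, and the lists held from 3 to 501 members tested without N2 B. Of 61 tested P450 genes 2 were higher and 4 lower without N2 B, beside 0.739% and 0.665% of all tested genes, the falls being cyp-29A4, cyp-32A1, cyp-25A3 and cyp-29A2. Among 21 regulators of insulin signalling and L1 arrest cki-1 and aak-1 were higher. The gene cki-1, a cyclin-dependent kinase inhibitor that keeps blast cells from dividing in arrest, stood at 34.6, 17.1, 29.04 and 28.5 CPM in N2 and at 42.9, 54.1, 54.3 and 47.1 CPM in PHX2193. All PHX2193 libraries lay above all N2 libraries with or without N2 B, with log2 fold changes of 0.86 ± 0.18 with it (edgeR, adjusted p = 0.070) and 0.69 ± 0.11 without it (edgeR, adjusted p = 0.012). A catalytic subunit gene of AMP-activated kinase, aak-1, had 357 CPM in N2 B against 135 to 145 CPM in the other N2 libraries and rose by 0.38 ± 0.08 without N2 B, where the log2 fold change with all libraries was -0.09 ± 0.26 (edgeR, adjusted p = 0.94). The genes daf-2 and daf-16 had log2 fold changes of 0.01 ± 0.16 and -0.06 ± 0.13. Like aak-1, the genes named next were picked after their values were seen. The gene fat-6, a stearoyl-CoA desaturase, rose from 773 ± 120 (n = 3) to 1552 ± 274 CPM without N2 B (log2 fold change 1.002 ± 0.15, edgeR, adjusted p = 0.0088). N2 B held 12007 CPM of fat-6, and with it the N2 mean was 3581 ± 5618 CPM (n = 4) and the log2 fold change was -1.21 ± 0.80 (edgeR, adjusted p = 0.61). The DAF-16 target mtl-1, a metallothionein gene, fell by 0.71 ± 0.16 without N2 B (edgeR, adjusted p = 0.049), and had a log2 fold change of -0.81 ± 0.17 with all libraries (edgeR, adjusted p = 0.074). Without N2 B edgeR called 2 lower and 0 higher of 17 tested genes raised by DAF-16, whose median was -0.07. Of 6 tested dod genes, which DAF-16 lowers, it called 1 lower and 0 higher, and their median was -0.61.

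The medians of several lists depended on N2 B. With all libraries the median log2 fold change was -1.70 for 5 genes of the glyoxylate cycle and gluconeogenesis, -0.67 for 20 of fatty acid synthesis, -0.66 for 19 of glycolysis, -0.60 for 13 of the hypoxia response, -0.53 for 17 raised by DAF-16, -0.51 for 22 heat shock genes and -0.38 for 44 of the nuclear respiratory chain. None of their members was called by edgeR or limma-voom, with 3, 4, 4, 5, 7, 9 and 12 at an unadjusted p under 0.05, and DESeq2 called 4 of the DAF-16 list and 2 heat shock genes. Over all 15908 tested genes 11.6% had an unadjusted p under 0.05 and DESeq2 called 451. The heat shock list does not hold F08H9.4, the small heat shock gene called lower. Without N2 B these medians were 0.19, 0.01, -0.01, 0.13, -0.07, -0.11 and -0.09, beside -0.01 over all tested genes. The gluconeogenesis gene pck-2 was also far higher in N2 B, with 878, 4782, 877 and 831 CPM in N2 A to D and 742, 553, 490 and 483 CPM in PHX2193. Unlike the median of its list, pck-2 stayed negative without N2 B. Every PHX2193 library was below N2 A, C and D, and the log2 fold change was -0.61 ± 0.15 (edgeR, adjusted p = 0.065). The small heat shock gene hsp-12.3 had 1024 CPM in N2 B and 78.8 to 105 CPM in the other N2 libraries, and the glycolysis gene aldo-1 had 1831 CPM in N2 B and 176 to 258 CPM in the others.

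**Figure D5:**
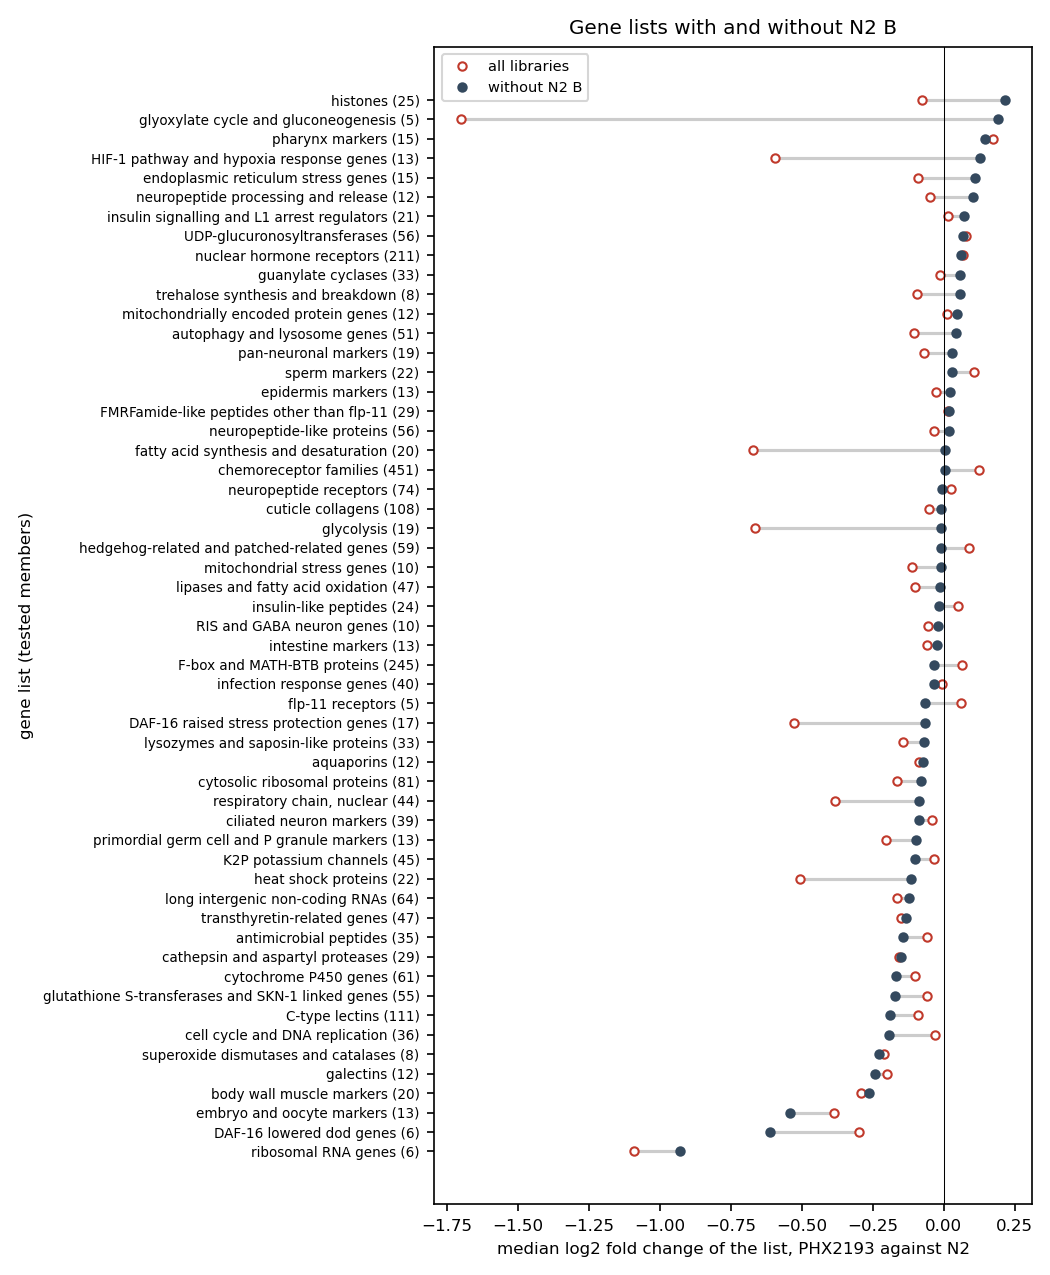
Median log2 fold change of PHX2193 against N2 for each gene list with at least 5 tested members, with all libraries as open points and without N2 B as filled points. The glyoxylate cycle and gluconeogenesis list goes from -1.70 to 0.19, and most other lists stay near 0 under both.

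Markers of cell types were used to see whether the make-up of the samples differed. Of 20 body wall muscle markers, genes of the sarcomere and its attachments, none was called by edgeR or limma-voom. Of these markers 9 had an unadjusted p under 0.05, DESeq2 called 4, all lower, and 19 had negative log2 fold changes. Over all 15908 tested genes 11.6% had an unadjusted p under 0.05 and DESeq2 called 451. The summed level of the list ran from 9175 to 15645 CPM in N2 and from 5712 to 9754 CPM in PHX2193, so the groups overlapped. The muscle myosin gene unc-54 stood at 3676, 6550, 4086 and 3380 CPM in N2 A to D and at 3106, 2267, 1629 and 1465 CPM in PHX2193, and in HBR2340 at 8351 ± 555 CPM. The log2 fold change of unc-54 was -1.06 ± 0.25 (edgeR, adjusted p = 0.10), and -0.82 ± 0.21 without N2 B. The median of the list was -0.29, and -0.26 without N2 B, where the troponin T gene tnt-2 was called lower. None of 13 intestine, 13 epidermis, 15 pharynx or 19 pan-neuronal markers was called by edgeR, DESeq2 or limma-voom, with 0, 2, 4 and 0 at an unadjusted p under 0.05, and their medians lay between -0.07 and 0.17. For 13 embryo and oocyte markers the median was -0.39, their summed level ran from 19.4 to 152 CPM in N2 and from 19.8 to 102 CPM in PHX2193, and no member was called by any tool or had an unadjusted p under 0.05. Ribosomal RNA genes took 12228 to 87401 CPM in N2 libraries and 5034 to 79556 CPM in PHX2193. The part that muscle RNA or leftover ribosomal RNA has in the called genes was not tested.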

How the data were processed

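Per the labels' protocols, total RNA was taken with Trizol after bead beating and prepared with standard Illumina methods. The authors deposited raw gene counts, whole numbers for 46934 WormBase identifiers in 12 libraries, 4 per strain. Reads were aligned with Bowtie 0.12.2, per the submitters' processing notes, which name WBcel235 and also the mouse build mm8. The counting program, its strand setting and its handling of reads with several matches are not given in the sources used. Symbols and positions came from Ensembl's WBcel235 annotation (46924 identifiers matched, 2821 without a symbol). Of the 58 called genes 23 overlap another gene that is not a small RNA, 20 of them one on the other strand, and without a strand setting reads of such pairs cannot be told apart.

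The counts were analysed in R 4.3.3 with edgeR 4.0.16. filterByExpr by strain (minimum count 10, minimum total 15) kept 15908 genes and removed 31026, of which 15339 had no count at all. TMM scaling, a robust quasi-likelihood fit with a term per strain over all 12 libraries (residual degrees of freedom 9, common BCV, the replicate coefficient of variation, 0.276), two-sided tests and Benjamini-Hochberg adjustment over all genes tested followed. The standard error is the log2 fold change divided by the square root of F. The p-values set the difference between strains against the spread between replicates, estimated over all 12 libraries with HBR2340 included. The labels letter the replicates A to D without stating whether they are separate cultures. No 2 libraries were copies, the closest pair differing by a chi-square of 20.5 per degree of freedom. The floors (3 counts) cover counting error only. The standard errors come from the quasi-likelihood fit, and the SDs are between replicate libraries. The procedure was also run on simulated counts, drawn without an outlying library and without a shared deviation of the D libraries. That run does not cover these features of the data.

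Named genes are flp-11, the 15 largest rises and 15 largest falls among called genes with a mean log2 CPM of at least 1 (prior count 2) and no overlap between strains, the 10 genes gained without N2 B with the smallest adjusted p, and from each list up to 2 called members or else the member with the smallest p. Genes outside this rule were chosen with their values known. Some are said to be picked after their values were seen, and others, such as ttr-25, lys-2, srw-69 and spp-22, carry no such remark. The libraries, the 56 gene lists and the named gene rule were chosen with earlier results of these data known. Lists are described by counts and medians, without a set test. Other settings were DESeq2 1.42.0, limma-voom (limma 3.58.1), other scaling factors and filters, no robust estimation, a replicate block, the 8 compared libraries alone, removal of each library in turn, the D libraries left out, and, chosen after seeing the data, PHX2193 and N2 without N2 B and HBR2340.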

Additional observations from a re-analysis of the deposited data

Results flagged for a closer look

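Among 176 groups of 4 libraries checked for the genes named above, 18 held a library whose gap to the nearest other library was too large a share of the group's range by Dixon's test at the 95% level. Chance gives about 1 in 20 groups, a rate that is no measure for N2 B, since the genes include 10 chosen because edgeR called them without N2 B and not with it. N2 B was that library in 13 of them, 8 times as the highest.

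N2 B was far above the other N2 libraries for col-80 (82.2 CPM against at most 17.3), hsp-12.3 (1024 against 105), pck-2 (4782 against 878), pamn-1 (399.6 against 34.5), aldo-1 (1831 against 258), gpd-2 (1385 against 226), ubc-3 (318.0 against 182) and dhhc-11 (18.3 against 5.25 CPM). It was far below them for Y73F4A.3 (22.6 CPM against at least 40.7), scl-14 (0.795 against 8.20), cyp-29A4 (0.227 against 4.21), vit-6 (0.170 against 2.91) and C05D12.3 (0.965 against 16.5 CPM).

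The other 5 cases came from 4 libraries of both strains. PHX2193 A was low for W06F12.3 (24.5 CPM against at least 37.9 in PHX2193 B to D) and high for elt-3 (51.6 against at most 41.0 CPM). PHX2193 C was high for lipl-3 (1.96 against at most 0.752 CPM), and N2 D was low for the same gene (0.137 against at least 0.217 CPM). N2 C was low for the ribosomal RNA gene rrn-1.1 (15.7 against at least 82.2 CPM).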

How the results depend on the processing

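The 58 calls moved most with the tool and the libraries. DESeq2 called 451 (197 higher, 254 lower, 187 past 2-fold) and included all 58, only the 8 libraries gave 3 (1 higher, 2 lower, 3 past 2-fold), leaving out both D libraries, of N2 and of PHX2193, gave 4 (0 higher, 4 lower, 3 past 2-fold), and removal of these and N2 B gave 131 (72 higher, 59 lower, 56 past 2-fold, and 5565 for PHX2193 against HBR2340). PHX2193 and N2 without N2 B, chosen after seeing the data, gave 40 (21 lower), 24 of them among the 58. Fits without 1 library each gave 7 to 228 calls, 3 to 120 higher, 4 to 108 lower and 6 to 89 past 2-fold, and 2237 to 5339 for PHX2193 against HBR2340. Other scaling factors, a filter of 10 counts in 4 libraries, limma-voom and no robust estimation gave 52 to 58, and no filter 84. The same letters do not pair the strains by the labels, and the correlations of same-letter deviations were -0.074, -0.088, -0.070 and 0.661. With the replicate block 24 genes were called (11 higher, 13 lower, 19 past 2-fold), 23 of them among the 58. The flp-11 call held in every setting. Among the genes named by the rule 2 reversed, neither of them called. Of the other genes in the text fat-6 (-1.21 to 1.002) and aak-1 (-0.09 to 0.38) reversed without N2 B, where both were called, as did npr-22, dmsr-1 and daf-16, which were not. pamn-1 went from -1.80 to 0.16 without N2 B (fits without 1 library from -2.12 to 0.16), 0.23 without N2 B and the D libraries, and 0.16 in PHX2193 and N2 without N2 B. gpd-2 went from -1.21 to 0.047 (fits without 1 library from -1.47 to 0.047), 0.14 and 0.046 in the same settings. At these depths a gene with fewer than about 3 counts per library cannot be followed.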
